A study of Homo sapiens with 10 samples.

Results

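Human microglia recovered from amyloid-bearing mice whose labels give an intact enhancer for their own microglia were compared after weekly Lecanemab or control IgG1. The cells are H9 embryonic stem cell-derived microglia, H9 being an established human line, grafted into the brains of App NL-G-F mice whose Fms-intronic regulatory element (FIRE), an enhancer of the host gene Csf1r, was intact by the labels. Of 49988 human cells that passed the filters in the whole series, 29245 came from these 15 mice, and the other 20743 came from mice that carried the FIRE deletion. Cells were chosen as barcodes with a single hashtag, at least 1000 human UMIs (unique molecular identifiers, one per captured RNA molecule) and at most 5% mouse UMIs. Lecanemab was given to 7 mice, which yielded 14044 cells with a lowest, median and highest count per mouse of 1124, 1974 and 2942. IgG1 was given to 8 mice, which yielded 15201 cells with 996, 1784.5 and 3507 per mouse.

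All mice of both groups were Rag2-/- Il2rg-/- hosts that made human CSF1 and carried the humanised App gene with the Swedish, Arctic and Iberian changes. Hosts of this kind lack lymphocytes. The study's methods describe depleting host microglia in newborn pups with a CSF1R inhibitor before grafting for App NL-G-F hosts of an uptake assay, which were treated at older ages than the labels give here. Whether the mice described here belong with that cohort or were depleted the same way is not given in the sources used here. By the labels, injections of 10 mg/kg ran weekly for 8 weeks from 4 months of age, and the human cells were then sorted as CD11b+ and human CD45+ and profiled by droplet single-cell RNA sequencing. The labels write "mAb158" beside Lecanemab and "IgG2a" beside IgG1, and they give both sexes but not which mouse had which. The mice were grouped here into 3 pools by sequencing library: libraries 1 and 2, library 3, and libraries 4 and 5. The labels of libraries 1 and 2 name the same mice, while the mice of library 4 were assumed to be those of library 5. A pool is thus a grouping of libraries and not a stated processing batch. The first pool held 3 Lecanemab and 4 IgG1 mice, the second 1 and 2 and the third 3 and 2. The mouse was the replicate throughout, and the main tests compared mice within pools. Lowest, median and highest values of a group run over all pools, which hold the treatments in unequal numbers.

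Lecanemab is an antibody against soluble aggregated amyloid-beta, and its Fc portion can engage Fc gamma receptors on microglia, the resident macrophages of the brain. Microglia that bind antibody-coated amyloid can take it up and pass it to lysosomes. Near plaques they are known to lower homeostatic genes and to raise a set of lipid, lysosomal and adhesion genes called the disease-associated microglia (DAM) program. Type I interferon and antigen-presentation programs form further states.

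In 1 mouse no host microglia were counted, although its label gives an intact enhancer. Host microglia, counted as mostly mouse barcodes with at least 2 of 4 microglial markers, numbered 9 to 95 in 14 of these mice. The mouse labelled AB12, an IgG1 mouse of the first pool, had 0 host microglia among 65 host cells, as did several FIRE mice, whose range was 0 to 5. The study states 6 mice per treatment for its single-cell comparison, and its methods give the FIRE deletion for that cohort. By the labels, the deletion was in 6 Lecanemab and 5 IgG1 mice of these libraries. These counts do not give the genotype of AB12, and whether it carried the deletion was not tested. Results that turn on AB12 are therefore given with and without it. The pair of mice AB38 and AB40 of the second pool also stood apart. The IgG1 mouse AB38 had a median of 6003.5 UMIs per cell against a group median of 3320.5. In the Lecanemab mouse AB40, 8.26% of cells fell in a small DAM-like cluster. That cluster held at most 0.318% of the cells of any other Lecanemab mouse and at most 0.356% of those of any IgG1 mouse. The human cells carried the defining markers of microglia in every mouse, with CX3CR1 between 1494 and 2192 CPM (the UMIs of a gene scaled to the same total in each mouse), P2RY12 between 916 and 2215, CSF1R between 916 and 1226 and TMEM119 between 143 and 207. The 5 libraries held 30879606 to 66405678 human UMIs, and pairs of libraries shared 2 to 23 cell barcodes.

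Recovery of the grafted cells did not differ beyond the spread between mice. Cells per mouse averaged 2006 ± 790 (SD, n = 7) with Lecanemab and 1900 ± 787 (SD, n = 8) with IgG1 (two-sided exact permutation within pools, p = 0.478, adjusted over 6 measures p = 0.753). Median UMIs per cell averaged 3644 and 3687 (exact permutation p = 0.956), and host microglia 28.6 ± 11.6 and 36.6 ± 27.6 (exact permutation p = 0.502). The share of single-hashtag barcodes with more than 5% mouse UMIs, which were left out of the human sums, averaged 5.93% ± 1.26 with Lecanemab and 8.05% ± 2.30 with IgG1 (exact permutation p = 0.0467, adjusted p = 0.28). Without AB12 the IgG1 mean was 8.77% ± 1.19 (exact permutation p = 0.00333, adjusted p = 0.02, with 0.00167 the smallest p that 600 assignments allow). Host cells, barcodes with at least 80% mouse UMIs, are part of this share and averaged 99.0 ± 31.5 and 118.0 ± 43.9 per mouse. Their part in the difference was not tested.

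Over all cells of each mouse, 2 genes rose with Lecanemab and none fell. They were MYO1E, a single-headed myosin that links actin to membranes during endocytosis and phagocytosis, and VSIG4, a complement receptor of tissue macrophages that binds C3b and iC3b. They were 2 of 13023 genes tested, or 0.0154% (edgeR quasi-likelihood test with pool as a term, Benjamini-Hochberg adjusted p under 0.05). At an unadjusted p under 0.05 there were 626 genes, 4.81% of those tested, with 299 higher (2.3%) and 327 lower (2.51%). DESeq2 on the same sums called 11 genes (0.0845%), both of these among them. In such sums a change in the share of cells of a type and a change in RNA per cell cannot be told apart.

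MYO1E, at chr15:59132434-59372871 on the minus strand of GRCh38, had a lowest, median and highest level of 23.7, 31.8 and 41.1 CPM in the Lecanemab mice and of 17.5, 22.3 and 30.0 CPM in the IgG1 mice. The groups overlapped across pools, but inside each pool every Lecanemab mouse was above every IgG1 mouse. The log2 fold change was 0.53 ± 0.08 (SE), or 1.45-fold, with an adjusted p of 0.0151. The within-pool differences of mean log2 CPM were 0.47, 0.72 and 0.47. Without AB12 it was 0.59, with an adjusted p of 0.0016.

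VSIG4, at chrX:66021738-66040125 on the minus strand, had 467, 557 and 856 CPM with Lecanemab and 365, 405 and 633 CPM with IgG1. Its highest Lecanemab value was AB40 and its highest IgG1 value AB38, both of the second pool. Here too every Lecanemab mouse exceeded every IgG1 mouse of its own pool. The log2 fold change was 0.51 ± 0.08 (SE), or 1.43-fold, with an adjusted p of 0.0232, and the within-pool differences were 0.50, 0.70 and 0.44. Without AB12 it was 0.49, with an adjusted p of 0.0865, so that MYO1E alone passed, as 1 of 12928 genes (0.00774%).

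The promoters of both genes are shown because these were the only genes that passed in the sum over all cells. Each is RefSeq sequence of GRCh38.p14 on the gene's strand, with the 250 bases before the RefSeq start in lower case and the 50 bases from the start on in capitals, at chr15:59372822-59373121 for MYO1E and chrX:66040031-66040330 for VSIG4, both on the minus strand. The gene positions above are GENCODE's, and for VSIG4 that annotation starts upstream of the RefSeq start, so the last lower-case bases of its window lie inside the GENCODE gene.
MYO1E: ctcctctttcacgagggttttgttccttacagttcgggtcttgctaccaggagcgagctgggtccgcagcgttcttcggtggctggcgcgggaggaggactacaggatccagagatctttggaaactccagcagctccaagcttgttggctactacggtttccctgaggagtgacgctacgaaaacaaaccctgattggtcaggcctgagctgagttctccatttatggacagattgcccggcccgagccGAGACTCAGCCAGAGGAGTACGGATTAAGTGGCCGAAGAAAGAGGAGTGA
VSIG4: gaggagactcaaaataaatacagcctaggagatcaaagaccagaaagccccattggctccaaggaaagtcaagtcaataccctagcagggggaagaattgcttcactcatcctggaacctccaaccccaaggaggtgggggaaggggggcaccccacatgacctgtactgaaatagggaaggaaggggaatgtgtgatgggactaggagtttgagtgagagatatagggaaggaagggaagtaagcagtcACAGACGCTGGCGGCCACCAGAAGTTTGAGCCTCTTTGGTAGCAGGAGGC
On either strand neither window held GAGGAAG, the core searched for the myeloid factor PU.1, which 13.6% of 35116 promoters of this length held. TGANTCA, searched for AP-1, was in 7.71% and CACGTG, the E-box of the lysosomal MiT/TFE factors, in 7.26% of all promoters, and neither was in these windows. Absence of these letters says nothing about binding elsewhere.

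The calls changed with single mice. With each mouse left out in turn, MYO1E stayed between 0.48 and 0.59 on the log2 scale and kept its call in 9 of 15 fits, and lost it without AB04, AB05, AB08, AB39, AB40 or AB53. VSIG4 kept its call in 6 of 15 and lost it without any of those mice, AB02, AB12 or AB45.

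**Figure D1:**
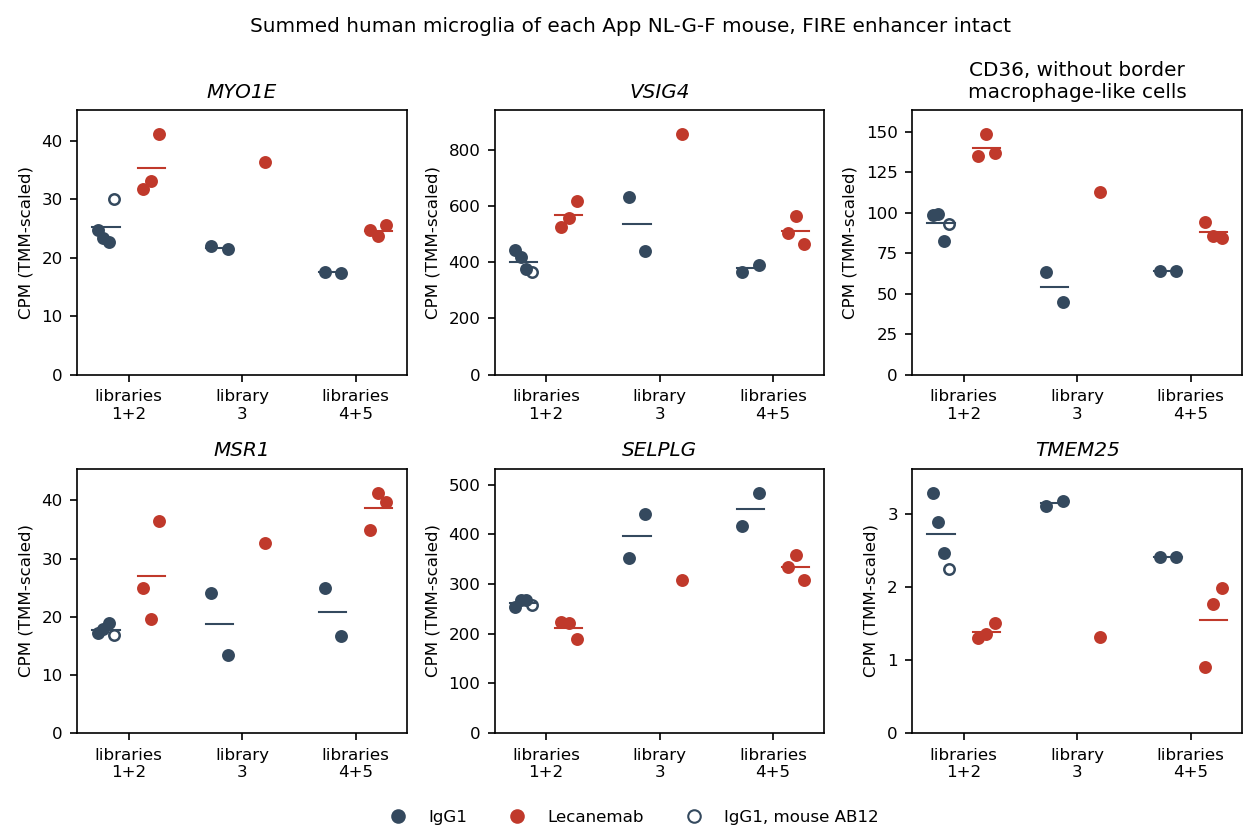
Level of MYO1E, VSIG4, CD36 (border macrophage-like cells left out), MSR1, SELPLG and TMEM25 in each mouse, in CPM of the summed human counts, by pool and treatment. Each point is a mouse, the open circle is the mouse labelled AB12 and the line is the mean where a group has more than 1 mouse. In every pool the Lecanemab points for MYO1E, VSIG4, CD36 and MSR1 lie above the IgG1 points, and those for SELPLG and TMEM25 below. For the cells used for CD36, the share of genes apart in this way was not counted.

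Inside every pool the 2 treatments did not overlap for 20 genes higher with Lecanemab (0.154% of 13023) and 17 genes lower (0.131%). If treatments were exchangeable within pools, separation in a given direction would have a probability of 0.00095 over the 1050 assignments. Separation within pools therefore does not by itself mark out a gene. The genes next in order of p did not pass. MSR1, a class A scavenger receptor for modified lipoproteins and aggregates, had 19.7, 34.9 and 41.3 CPM with Lecanemab and 13.5, 17.6 and 24.9 CPM with IgG1 (log2 fold change 0.73 ± 0.14, adjusted p = 0.162). GAS7, an F-BAR protein of the actin cytoskeleton, had 14.5, 18.7 and 22.3 CPM against 10.3, 13.6 and 14.8 CPM (0.47 ± 0.09, adjusted p = 0.136). For both genes the groups overlapped across pools but in no pool. RASA1, a Ras GTPase-activating protein, ARID5B, a DNA-binding regulator of lipid genes, TNFSF18, the ligand of the receptor GITR, and the receptor phosphatase PTPRG had log2 fold changes of 0.27, 0.52, 1.09 and 1.43 (adjusted p from 0.162 to 0.189). PTPRG reached 15.4 CPM in AB40 against a Lecanemab median of 3.97.

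On the lower side no gene passed in all 15 mice. SELPLG, the ligand of P-selectin and a marker of homeostatic microglia, had 189, 308 and 357 CPM with Lecanemab and 254, 310 and 484 CPM with IgG1. Its groups overlapped across pools and not within any, and its log2 fold change was -0.36 ± 0.07 (adjusted p = 0.104). Without AB12 and AB38 together, a choice made after seeing the data, SELPLG fell and MYO1E, VSIG4 and the cytokine-signalling inhibitor SOCS3 rose, as 4 of 13050 genes (0.0307%). TMEM25, an immunoglobulin-superfamily membrane protein among the 16 leading genes, had 0.90, 1.36 and 1.98 CPM with Lecanemab and 2.25, 2.68 and 3.29 with IgG1. These ranges did not overlap across pools, but the share of all genes tested for which this held was not counted. TMEM25 had 238 UMIs in all and a log2 fold change of -0.93 ± 0.19 (adjusted p = 0.162). SUSD3, the immune GTPase GIMAP1, the membrane progestin receptor PAQR5, HCG22, the RNA AL157895.1 and the collagen COL18A1 completed the 8 lowest-p genes on this side, with log2 fold changes from -0.25 to -1.09 and adjusted p from 0.282 to 0.489.

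**Figure D2:**
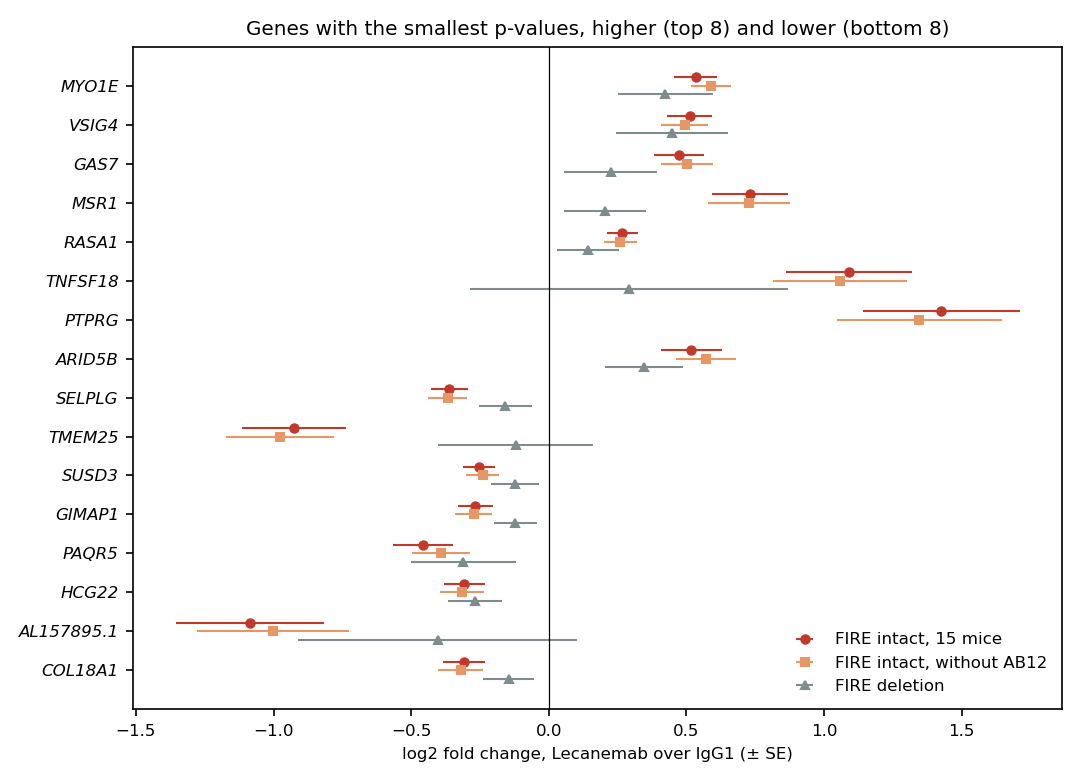
Log2 fold change, Lecanemab over IgG1, of the 16 leading genes with its SE, for the 15 mice with an intact enhancer, for the same mice without AB12 and for the FIRE mice. Leaving out AB12 moved MYO1E from 0.53 to 0.59 and VSIG4 from 0.51 to 0.49, and PTPRG was not tested in the FIRE mice.

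CD36, a scavenger receptor for lipids and fibrillar amyloid, rose once cells resembling border macrophages were set aside. Over all cells it had 141, 163 and 295 CPM with Lecanemab and 71.4, 150 and 206 CPM with IgG1 and did not pass (0.31 ± 0.15, unadjusted p = 0.062, adjusted p = 1.00). The clusters named border macrophage-like, of 825 and 107 cells, were led by F13A1 and SELENOP and held CD36 at group medians of 2154 and 2426 CPM in the larger one. In the other clusters tested, group medians of CD36 lay between 53.2 and 157 CPM. The larger cluster made up 1.80% to 4.89% of the cells of a Lecanemab mouse and 1.07% to 4.13% of those of an IgG1 mouse.

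Without these clusters 28313 cells remained, and 3 of 12903 genes passed (0.0233%), namely CD36, MYO1E and VSIG4. CD36 then had 84.2, 113 and 148 CPM with Lecanemab and 45.1, 73.2 and 99.4 CPM with IgG1. By pool, the Lecanemab mice had 135 to 148 CPM against 82.5 to 99.4, then 113 against 45.1 and 63.5. In the third pool they had 84.2 to 94.6 against 63.8 in both IgG1 mice. The groups did not overlap in any pool, but the share of the 12903 genes with this pattern was not counted. The log2 fold change was 0.63 ± 0.08 (SE), or 1.55-fold, with an adjusted p of 0.00114. CD36 kept its call in all 15 fits that left out a mouse, with log2 fold changes from 0.54 to 0.66 and a highest adjusted p of 0.00911. The cells were also clustered again without CD36, MYO1E and VSIG4 among the genes, a choice made after seeing the data, and CD36 again rose (0.64, adjusted p = 0.00108). In this smaller sum MYO1E kept its call in 13 of 15 such fits and VSIG4 in 11 of 15. MYO1E lost it without AB05 or AB40, and VSIG4 without AB05, AB08, AB39 or AB40.

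The direction of VSIG4 was shared by the clusters. The 29245 cells formed 15 clusters, and 11 had enough cells per mouse for the same test. VSIG4 was higher with Lecanemab in 11 of 11, with log2 fold changes from 0.16 to 0.87 and a median of 0.54, and rose in 7 of them. These were cluster 1, where it was the only call (0.0103%), clusters 2, 3, 5, 6 and 8, where 1 to 5 genes were called, and cluster 12, where it was again the only call (0.0388%). As the clusters come from the same mice, these are not 7 independent results. In cluster 2, named immediate-early-like and led by KLF2 and NR4A2, VSIG4 had 403, 543 and 876 CPM with Lecanemab and 311, 380 and 538 CPM with IgG1 (0.58 ± 0.09, adjusted p = 0.00417, 2 genes or 0.0195% called). In the HLA-like cluster 6 it had 258, 344 and 519 CPM against 205, 225 and 411 CPM (0.51 ± 0.09, adjusted p = 0.00235, 1 gene or 0.0151% called). Its calls numbered 7 without AB12, 4 without AB38 and 2 without AB40.

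CD36 rose in 3 of the 10 clusters where it was tested, with log2 fold changes of 0.69 in cluster 2, 0.66 in the unnamed cluster 3 and 0.55 in the DAM-like cluster 5, and its estimate was above 0 in 9 of the 10. The call in cluster 3 was lost without AB40 (adjusted p = 0.0563) and that in cluster 5 without AB38 or AB40 (adjusted p = 0.106 and 0.384). The exception was the border macrophage-like cluster, at -0.07. MYO1E passed in none of the 6 clusters where it was tested and was above 0 in 6. SELPLG passed in none of 11 and was below 0 in 10. SPP1, which encodes osteopontin, was above 0 in 11 of 11 and passed in none.

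A few further genes passed inside a cluster and are named here after their values were seen. In the DAM-like cluster 5, where 5 of 7198 genes passed (0.0695%), PHLDA1, a regulator of stress and survival signalling, had 14.6, 31.1 and 49.1 CPM with Lecanemab and 5.97, 10.1 and 26.8 CPM with IgG1 (1.25 ± 0.23, adjusted p = 0.0119). Cytosolic creatine kinase CKB and the leukocyte receptor LILRA4 fell in that cluster (-0.49 and -0.61, adjusted p = 0.0119 and 0.0307). In cluster 3, where 3 genes passed (0.0367%), the membrane glycoprotein PDPN rose (0.62 ± 0.13, adjusted p = 0.0195). In cluster 8, led by APOC1 and ribosomal genes, 4 of 2197 genes passed (0.182%), and besides VSIG4 these were LGALS1, which rose by 0.75, and C12orf75 and CKB, which fell by 0.69 and 0.53 on the log2 scale. Of these calls in clusters 3, 5 and 8, none of those for PHLDA1, CKB, LILRA4, PDPN, LGALS1 and C12orf75 was left without AB40. LILRA4 also lost its call without AB12 (adjusted p = 0.0521) or AB38 (adjusted p = 0.106), and LGALS1 without AB38 (adjusted p = 0.0776).

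In the border macrophage-like cluster 9, 10 of 4129 genes passed (0.242%), 9 of them higher. They included FCGR1A, the high-affinity Fc gamma receptor, at 117, 163 and 241 CPM with Lecanemab and 53.5, 89.6 and 137 CPM with IgG1 (0.84 ± 0.19, adjusted p = 0.0482). CCL2, a monocyte chemoattractant, BST2, an interferon-induced antiviral protein, PSME2, an activator of the proteasome, and the lysosomal protease CTSH also rose (log2 fold changes from 0.48 to 1.07), as did LGALS3BP, CH25H, GSN and HCST. LGI2 fell (-0.80 ± 0.18). CH25H, CCL2, HCST and CTSH lost their calls without AB12. AB38 had too few cells for this cluster, no call was left without AB40, where FCGR1A had an adjusted p of 0.0832, and 32.2% of the cluster's cells had high doublet scores. The part of these in the result was not tested.

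Fc gamma receptors, through which an antibody is bound, were near their IgG1 levels over all cells. FCGR1A had 635, 810 and 874 CPM with Lecanemab and 634, 707 and 1081 CPM with IgG1 (0.12 ± 0.08). FCGR3A, the low-affinity activating receptor, had 809, 1075 and 1243 CPM against 904, 1090 and 1163 CPM (-0.01 ± 0.08). The activating FCGR2A and the inhibitory FCGR2B had log2 fold changes of 0.06 ± 0.11 and 0.07 ± 0.30. Of 21 genes tested among these receptors and their signalling partners, 0 had an unadjusted p under 0.05 and the median log2 fold change was 0.06, against -0.0045 over all 13023 genes. By cluster, FCGR1A was above 0 in 10 of 11, with log2 fold changes from -0.06 to 0.84 and a median of 0.18. It had an unadjusted p under 0.05 in 5 of the 11 and passed in 1, the border macrophage-like cluster. FCGR2A and FCGR3A were each above 0 in 7 of 11, with no unadjusted p under 0.05. The clusters come from the same mice.

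Of 47 phagosome and phagocytic receptor genes, 1, MYO1E, passed. At an unadjusted p under 0.05, 5 had estimates above 0 and 1 below, against 2.3% and 2.51% of all genes. Beside MYO1E and MSR1 these included the LPS co-receptor CD14 and TLR2 (0.42 and 0.43) and the tetraspanin CD63 (0.18). The median of the list was 0.0049. Of 67 lysosomal genes none passed, 2 were higher at an unadjusted p under 0.05 and 68.7% were above 0, against 47.9% of all genes, with a median of 0.04. IDUA, a lysosomal enzyme that cleaves glycosaminoglycans, had 10.97, 12.3 and 17.4 CPM against 8.70, 9.52 and 11.02 CPM (0.38 ± 0.10, adjusted p = 0.558). Of 19 complement genes, VSIG4 was the only call and the median was 0.0093.

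DAM genes leaned upward and homeostatic genes downward, each by a small amount. Of 37 DAM genes 86.5% were above 0, against 47.9% of all genes. At an unadjusted p under 0.05, 7 were on the higher side and 0 on the lower, against 2.3% and 2.51% of all genes, and the median log2 fold change was 0.11, or 0.13 without AB12. MYO1E, which stands in this list, was its only call. SPP1 had 7842, 10735 and 17982 CPM with Lecanemab and 6099, 7344 and 17501 CPM with IgG1, the latter highest value in AB38, and did not pass (0.58 ± 0.22, unadjusted p = 0.0197, adjusted p = 1.00). PPARG, LPL and CD63, which act in lipid handling and endosomes, had log2 fold changes of 0.29, 0.25 and 0.18. Of 31 homeostatic genes 19.4% were above 0, with a median of -0.08. SELPLG, TMEM119 and VSIR were lower (-0.36, -0.16 and -0.13) and TGFBR1 and NAV3 higher (0.15 and 0.31) at an unadjusted p under 0.05, and P2RY12 was at -0.17.

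The interferon genes turned on the mouse labelled AB12. The summed level of 53 type I interferon-induced genes was 2788, 3833 and 7439 CPM with Lecanemab and 2443, 3253 and 8831 CPM with IgG1, the highest value being AB12 and the next IgG1 mouse 4736. The highest Lecanemab values were AB05 at 7439 and AB01 at 6383 CPM, both of the first pool, and the next was AB02 at 4118. In the second pool the Lecanemab mouse AB40, at 3258 CPM, was below the IgG1 mice AB38 and AB52, at 3891 and 3323. In the third pool the Lecanemab mice were above the IgG1 mice. With all mice the median log2 fold change was 0.21 and 0 of 53 genes had an unadjusted p under 0.05. Without AB12 the median was 0.49, 53 of 53 were above 0 and 28 had an unadjusted p under 0.05, against 2.71% of all genes on the higher side, and none passed in either set. The 53 genes were measured in the same mice and are not independent results. IFIT2, an antiviral RNA-binding protein, had 342 CPM in AB12 against an IgG1 median of 62.8, and its log2 fold change went from 0.07 to 0.50 when AB12 was left out.

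Antigen-presentation genes were higher in estimate, and none passed. For 13 MHC class II genes 12 were above 0, with a median of 0.16, and HLA-DRB1 had 151, 324 and 414 CPM against 128, 197 and 488 CPM (0.33 ± 0.16). For 21 MHC class I and peptide-loading genes the median was 0.09, and 2 had an unadjusted p under 0.05, ERAP2 and the class I transactivator NLRC5 (0.34 and 0.48). Of 19 genes induced by interferon gamma, GBP1 and WARS had an unadjusted p under 0.05 (0.95 and 0.34). The 11 chemokines tested had a median of 0.24 and none below an unadjusted p of 0.05. The inflammatory cytokines TNF and IL1B were at -0.05 ± 0.24 and 0.13 ± 0.30.

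The study defined gene modules on cells of these libraries, from a cohort that its methods describe as carrying the FIRE deletion. Which mice it used is not given mouse by mouse. As they share libraries with the cells here, the study's modules were not treated as independent and were described the same way. Its pink module, which holds MYO1E, MSR1, ARID5B and SPP1, had 38 genes tested, 92.1% above 0 against 47.9% of all genes, 11 higher at an unadjusted p under 0.05 against 2.3% of all genes, and a median of 0.16. Its yellow module, rich in interferon-induced genes, had a median of 0.14 over 103 genes, and 0.26 without AB12. The salmon, black, red and brown modules had medians of 0.22, 0.10, 0.05 and 0.03.

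No marker of another cell type passed. The summed level of border macrophage markers ranged from 3013 to 5884 CPM with Lecanemab and from 2887 to 5453 CPM with IgG1, and 0 of the 11 tested had an unadjusted p under 0.05. Monocyte and neutrophil markers, 7 of which were tested, ranged from 380 to 702 and from 417 to 673 CPM. Mast cell and erythroid markers summed to at most 0.75 CPM in any mouse, lymphocyte markers had 1 gene tested, dendritic cell markers 2 and neural markers 3.

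The shares of the clusters gave no difference that passed. The DAM-like cluster 5 made up 5.65%, 8.07% and 10.2% (lowest, median, highest) of the cells of Lecanemab mice and 5.12%, 6.78% and 8.94% of those of IgG1 mice (exact permutation p = 0.219, adjusted p = 0.583). The interferon-response-like cluster 4 made up 1.96%, 3.27% and 19.3% against 0.68%, 2.09% and 22.6%, the last value being AB12 (exact permutation p = 0.493). The HLA-like cluster 6 had medians of 8.99% and 7.34% (exact permutation p = 0.56). The smallest p over the 15 clusters was 0.0686, for cluster 7, which was led by mitochondrial transcripts, with an adjusted p of 0.571 by the same exact permutation. Without AB12 the smallest was 0.027, with an adjusted p of 0.40 (exact permutation).

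**Figure D3:**
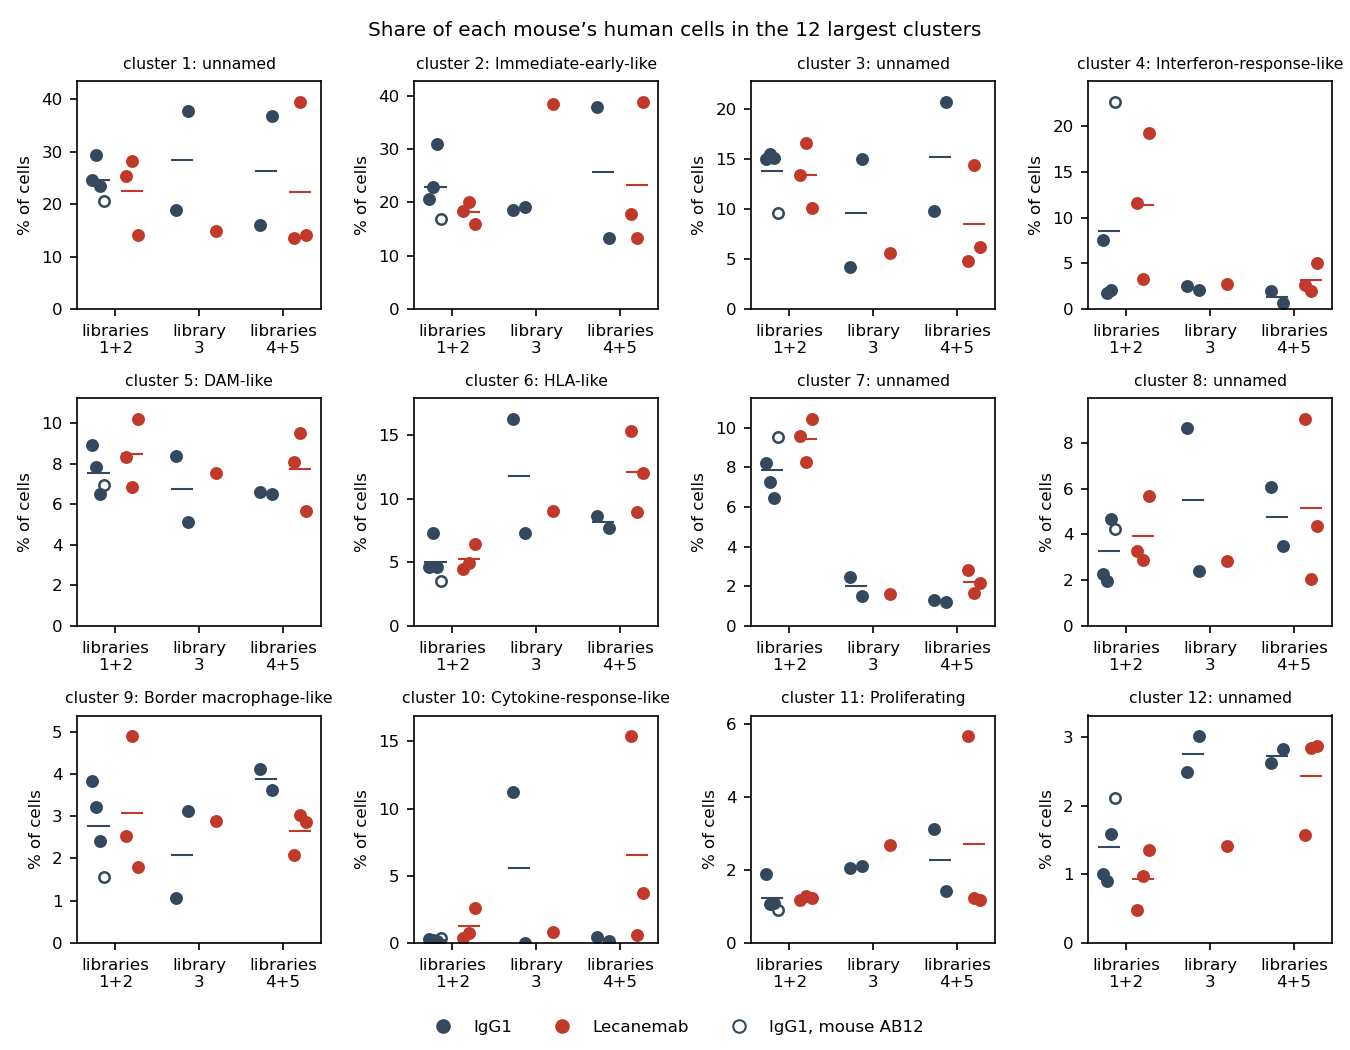
Percent of each mouse's cells in the 12 largest clusters, by treatment, with a point for each mouse and the mouse labelled AB12 as an open circle. The ranges of the groups overlap in all 12, and in cluster 4 AB12 is the highest point at 22.6%.

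Mice with the FIRE deletion, 6 given Lecanemab and 5 given IgG1 in the same libraries, had their own control mice, and no difference between host genotypes passed a test. In them 0 of 12511 genes passed (0%) and 855 had an unadjusted p under 0.05 (6.83%). MYO1E was at 0.42 ± 0.17 (unadjusted p = 0.0294) and VSIG4 at 0.45 ± 0.20 (unadjusted p = 0.0552). The test of the difference in treatment effect, in 1 fit over 26 mice, called 0 of 13699 genes (0%), with 613 at an unadjusted p under 0.05 (4.47%) and 0 called by DESeq2, with 575. The difference, intact minus FIRE, was 0.05 ± 0.19 for MYO1E and -0.01 ± 0.23 for VSIG4 on the log2 scale, and these SE leave room for a difference of either sign. MSR1 was at 0.73 in the intact and 0.20 in the FIRE mice, a difference of 0.53 ± 0.22 (unadjusted p = 0.0217). TMEM25 was at -0.93 and -0.12 (unadjusted p of the difference 0.0152). Neither difference passed after adjustment.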

How the data were processed

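Single-cell suspensions of hashtagged mice were profiled with 10x 3' chemistry in 5 libraries. The authors aligned the reads to a joint human (GRCh38) and mouse (mm10) reference with Cell Ranger (6.0.1 or 6.1.2 by the matrix headers, 6.1.2 in the submitters' notes, which also name Seurat 4.2.3) and deposited raw UMI counts for 36601 human and 32285 mouse genes and for the hashtags. These matrices were filtered for cells, so free RNA could not be estimated, and doublets beyond hashtag doublets were only scored. Hashtags were assigned here with HTODemux (Seurat 5.3.0, quantile 0.99). The labels of library 4 give the treatment of 6 Lecanemab mice of library 5, no IgG1 mouse, and the genotypes of library 3, so its mice were taken to be those of library 5 and took its labels, an assumption. Leaving library 4 out gave the same 2 called genes. Mouse AB09 was left out.

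Human counts were summed per mouse and tested with edgeR 4.0.16 (TMM, filterByExpr, quasi-likelihood, pool plus treatment, adjusted p under 0.05) in R 4.3.3, with 4029884 to 12763974 UMIs per mouse. SE is the log2 fold change divided by the square root of F, and CPM uses TMM-scaled totals. The genotype comparison added genotype and its interaction with treatment. Cells were clustered in Python 3.11.15 (2000 genes, 30 components, Leiden, resolution 0.8), and clusters with at least 20 cells in enough mice were tested in the same way. Cluster names come from rebuilt markers. Shares and recovery were tested by exact permutation of treatments within pools (1050 assignments). Named genes were the 8 of lowest p in each direction, genes the study's text names, leaders of the FIRE mice (CD36 among them), the 3 of lowest p in each list and the 5 of lowest p for the genotype difference; other list members were named after their values were seen. Alternatives were other scalings, filters, tools (DESeq2 1.42.0, limma 3.58.1) and omitted mice. Members and lists were chosen with earlier results of these data known. The study states that animals of different litters were spread over its groups, but not the litter of each mouse. Gene positions come from a later GENCODE release than the files' annotation. The scripts were tested on simulated data.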

Additional observations from a re-analysis of the deposited data

Results flagged for a closer look

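In 32 of 120 sets of values, each being 1 measure in 1 treatment group, a mouse lay further from the rest than Dixon's 95% limit, where chance gives about 1 in 20 for mice of 1 population. These sets span the 3 pools, so a difference between pools can appear as such a gap, and AB40 was the only Lecanemab mouse of its pool. AB38 and AB40, both of the second pool, account for most of them. The IgG1 mouse AB38 had a median of 6003.5 UMIs and 2121 genes per cell. Of its cells, 16.3% lay in the HLA-like cluster 6, 11.2% in the cytokine-response-like cluster 10 and 2.85% in the proliferating cluster 13. Cluster 10 was led by S100A9, S100A8, HAMP, IL1B and CCL2. Among the markers used for naming, S100A8 and S100A9 stand in the monocyte list. In AB38 VSIG4 was at 633 CPM, SPP1 at 17501, LGALS1 at 476, CTSD at 887, TNF at 142, IL1B at 356, FCGR1A at 1081, ANKRD22 at 56.5, CXCL10 at 140 and SCIN at 49.3. The Lecanemab mouse AB40 had 1.37% of its cells in cluster 13 and 8.26% in the DAM-like cluster 14, with VSIG4 at 856 CPM, PTPRG at 15.4, LGALS1 at 596, CTSD at 1115, ITGAX at 239 and FCGR2B at 7.42.

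The mouse labelled AB12 had 3.04% of its barcodes above the limit on mouse UMIs, 22.6% of its cells in the interferon-response-like cluster 4 and IFIT2 at 342 CPM. The IgG1 mouse AB53 had 95 host microglia. Of the Lecanemab mice, AB02 had 4.89% of its cells in the border macrophage-like cluster 9, AB41 had 15.4% in cluster 10 and 5.68% in the proliferating cluster 11, and AB45 had ARID5B at 13.6 CPM. The IgG1 mouse AB52 had the RNA AC027307.3 at 1.96 CPM. No cause of these values was tested.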

How the results depend on the processing

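The 2 genes called became 10 with no filter on low counts and 11 with DESeq2, where SELPLG and SUSD3 fell and MSR1, PTPRG, RASA1, MT-ND2, GAS7, TNFSF18 and ARID5B rose beside the original 2. They became 0 with no pool term, 0 with mice of both genotypes in 1 fit, 1 with libraries 1 and 2 alone, 0 with libraries 4 and 5 alone, 1 with equal cells per mouse and 4 without AB12 and AB38 together. The cause was not tested. With 1 mouse left out the count ranged from 0 to 3, with 0 without AB04, AB05, AB08, AB39, AB40 or AB53, 1 without AB12 and 3 without AB38. In the 6 fits with 0 calls, 470 to 637 genes had an unadjusted p under 0.05. Of 37 alternatives, 22 gave a count within 1.5 times the original. MYO1E was called in 26 of the 37 and VSIG4 in 25, and the sign of neither gene changed. The genotype difference called 0 genes under each of its 4 alternatives. Pool 2 held 1 Lecanemab mouse, so without AB40 that pool gave no treatment comparison. No paired analysis was possible because the names of the mice pair no Lecanemab mouse with an IgG1 mouse, and the pool was the block instead. Depth limits genes of a few CPM such as TMEM25, with 238 UMIs over 15 mice.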

Other observations

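Among lists not described above, none held a gene that passed. The 19 glycolysis genes tested were above 0 in 17, with a median log2 fold change of 0.11, and GPI and PFKP, enzymes of the upper pathway, had 0.27 ± 0.08 and 0.61 ± 0.18 (adjusted p = 0.772 for both). All 13 transcripts of the mitochondrial genome had estimates above 0, with a median of 0.10, while the 76 nuclear-encoded subunits of the respiratory chain had a median of 0.02. Cytosolic ribosomal protein genes had a median of -0.03 over 77 genes, with -0.03 without AB12 and 0.05 without AB12 and AB38 together.

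Of 31 Alzheimer risk genes expressed in microglia, 29.0% were above 0, with a median of -0.05, and 2, both below 0, had an unadjusted p under 0.05. The 40 cell cycle genes had a median of -0.08, with -0.09 without AB12 and 0.03 without AB12 and AB38 together, and of 0.48 over the 36 tested in FIRE mice. The 13 S100, annexin and galectin genes had a median of 0.18, and 0.34 without AB12. Of the 41 lists with a tested gene, 32 had a median above 0, both with all mice and without AB12. The difference between genotypes was largest by p for SYNE2, a linker of nucleus and cytoskeleton, at -0.62 in intact and 1.07 in FIRE mice (adjusted p = 0.948).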
